A study of Mus musculus with 9 samples.

Results

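The 5S ribosomal RNA gene copies were taken as every gene name of the deposited exon table that starts with n-R5s, which gave 143 copies among 33732 gene names. They were followed in whole healthy liver of 8-week-old wild-type C57BL/6 mice, in 3 groups that differ only in how the RNA was obtained. HuR RIP (RNA immunoprecipitation) is RNA pulled down with an antibody against HuR, IgG RIP is RNA pulled down with a control antibody, and Input is RNA of the lysate, with 3 libraries per group. Per the labels, the pull-downs were native (without crosslinking) and each used 1 liver, so the libraries hold RNA of all liver cell types. Input was given only as the authors' mean of its libraries, so values set against it have no test.

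5S RNA is the smallest RNA of the large ribosomal subunit and is made by RNA polymerase III, apart from the other ribosomal RNAs, from many near-identical genes. The transcription factor TFIIIA (gene Gtf3a) binds inside the gene, the La protein (Ssb) holds the U-rich end of the fresh transcript, and the ribosomal proteins Rpl5 and Rpl11 carry the RNA into the ribosome as a small particle of their own. Copies of the gene scattered through a mammalian genome are mostly decayed copies. HuR, encoded by Elavl1, is known for binding stretches rich in U or in A and U, above all in messenger RNAs.

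Of the 143 copies, 41 formed an array on chromosome 8 (GRCm38, the assembly also called mm10; positions 123538786 to 123622046, 83.3 kb), all on the minus strand and all 119 bases long, with a median spacing of 1703 bases between starts (1673 to 5118). GENCODE M21 places the whole array inside Gm20388, a gene annotated as protein-coding on the opposite strand, and none of the 41 lies in an exon of another gene. The array held 10 distinct sequences: 25 copies shared 1 sequence exactly, and the other 16 differed from it at 1 to 8 bases. The remaining 102 copies were spread over 21 chromosomes, no pair of them shared a sequence, and their identity to the most frequent sequence ran between 56.6% and 96.6% (median 78.8%). Of these 102, 55 lay within another annotated gene and 47 within a protein-coding one.

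The copies on which the results turn are the most frequent sequence, 4 array variants and 3 copies elsewhere. n-R5s100 (chr8:123538786-123538904, minus strand) stands for the 25 identical copies. n-R5s106 (chr8:123548956-123549074, minus strand) differs from them at 1 base and shares its sequence with n-R5s118 and n-R5s130. n-R5s112 (chr8:123559201-123559319, minus strand) differs at 1 other base, as do n-R5s120 and n-R5s125, and n-R5s136 (chr8:123599861-123599979, minus strand) at 1 base of its own. n-R5s102 (chr8:123542178-123542296, minus strand) differs by 3 substitutions, and 7 array copies carry these 3 together, against 0 of the 20 copies elsewhere that are of the same length with at most 12 substitutions. n-R5s194 (chr3:4338998-4339116, plus strand, outside annotated genes) differs at 5 bases and n-R5s71 (chr11:74319792-74319910, plus strand, outside annotated genes) at 6. n-R5s185 (chr4:53860652-53860770, plus strand) differs at 5 bases and overlaps an exon of Tmem38b on the same strand.

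The most frequent sequence holds few of the stretches for which HuR is known. Its longest run of T was 2 bases and T made up 21.01% of it. The motif TTTTT was found on the RNA strand in 1 of 143 copies (0.699%, n-R5s219, whose T run of 12 is the longest) and in 0 on the other strand. In windows of the same length, the first 119 bases of 137494 GENCODE transcripts, the shares were 9.47% and 9.99%. The motif ATTTA was found on the RNA strand in 2 copies (1.40%, n-R5s167 and n-R5s179) and on the other strand in 4 (2.80%), against 6.44% and 5.63% of windows. A match or its absence describes letters in these windows only.

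The library sizes behind the RPKM values (reads scaled by exon length and by library size) were 26.3 to 26.9 M reads in HuR RIP and 15.9 to 28.8 M reads in IgG RIP, and the depth of Input is unknown. Between 27.9% (HuR 2) and 60.5% (HuR 3) of a library's reads lay in listed exons, with 54.0% in IgG 1, the smallest library. HuR 2 and HuR 3 were thus at the ends of this share, and the main counts are also given without HuR 3 and IgG 1 and, as chosen after seeing the data, without HuR 2. The deposited column names end in M for the libraries numbered 1 and 2 and in F for those numbered 3, letters that the labels do not explain. Xist, the RNA that coats the inactive X chromosome of female cells, was at 0.00210, 10.2 and 0.463 RPKM in HuR 1, HuR 2 and HuR 3, against 0.00704, 0.103 and 0.358 RPKM in IgG 1, IgG 2 and IgG 3. The deposited fold columns also number HuR 2 and HuR 3 the other way round, so the numbers of these libraries are uncertain, which leaves the comparison of groups as it is. Hepatocyte markers were present in all groups: 7 of 7 were tested and 0 called, and their summed level was 910 to 953 RPKM in HuR pull-downs, 299 to 775 RPKM in IgG pull-downs and 792 RPKM in Input. The 3 erythroid markers summed to 35.4 to 105 RPKM in HuR pull-downs, 81.0 to 196 RPKM in IgG pull-downs and 49.1 RPKM in Input. Each of the other 5 marker lists (macrophage, endothelial, biliary, stellate and lymphocyte) summed to at most 9.73 RPKM in every library and to at most 4.25 RPKM in Input, and the part of any cell type in the 5S values was not tested. Nothing in the labels says that the libraries of a group came from separate animals beyond 1 liver per pull-down, and p-values measure the spread between these libraries.

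5S RNA took a smaller share of reads in 2 of the 3 HuR libraries than in any IgG library, but the groups overlapped. All copies together took 0.870%, 0.292% and 0.242% of the reads of HuR 1, 2 and 3, against 2.004%, 0.638% and 0.794% of IgG 1, 2 and 3, and 1.01% in Input. HuR 1 lay above IgG 2 and IgG 3, and the libraries numbered 1 were the highest of both groups. The means were 0.468% ± 0.349 in HuR RIP and 1.15% ± 0.748 in IgG RIP (SD, n = 3 each), so the SD of IgG RIP was larger than the difference. Behind these shares stood 231584, 76952 and 65115 reads in the HuR libraries and 317683, 170009 and 228890 reads in the IgG libraries, numbers at which counting error is small beside the spread between libraries. Relative to reads in listed exons, the shares were 2.01%, 1.05% and 0.4001% in HuR RIP, 3.71%, 1.44% and 1.74% in IgG RIP, and 2.21% in Input. These are shares of each library's reads and not amounts of 5S RNA, and the part of any cell type in them was not tested.

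The 25 identical copies carried about 9 in 10 of all 5S reads in every library. They took 92.0%, 93.2% and 92.1% of 5S reads in HuR RIP, 89.1%, 90.1% and 88.1% in IgG RIP and 92.9% in Input. Their mean level per copy was 2692, 915 and 749 RPKM in HuR 1, HuR 2 and HuR 3, against 6000, 1931 and 2351 RPKM in IgG 1, IgG 2 and IgG 3, and 3144 RPKM in Input. Between libraries of the same number, HuR RIP stood at 0.449, 0.474 and 0.319 times IgG RIP. The labels do not pair these libraries, and the numbers of HuR 2 and HuR 3 are uncertain. Within a library the 25 copies hardly differed: the SD among them was 1.02%, 1.82% and 2.29% of their mean in HuR RIP and 0.807%, 1.501% and 1.08% in IgG RIP, where counting error alone gives 1.08%, 1.87% and 2.04%, and 0.940%, 1.28% and 1.11%. Reads of identical copies were thus spread evenly over them, and the level of any 1 of these genes cannot be told apart from that of the other 24. The same limit touches copies that differ at a few bases, for reads that do not cover those bases.

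**Figure D1:**
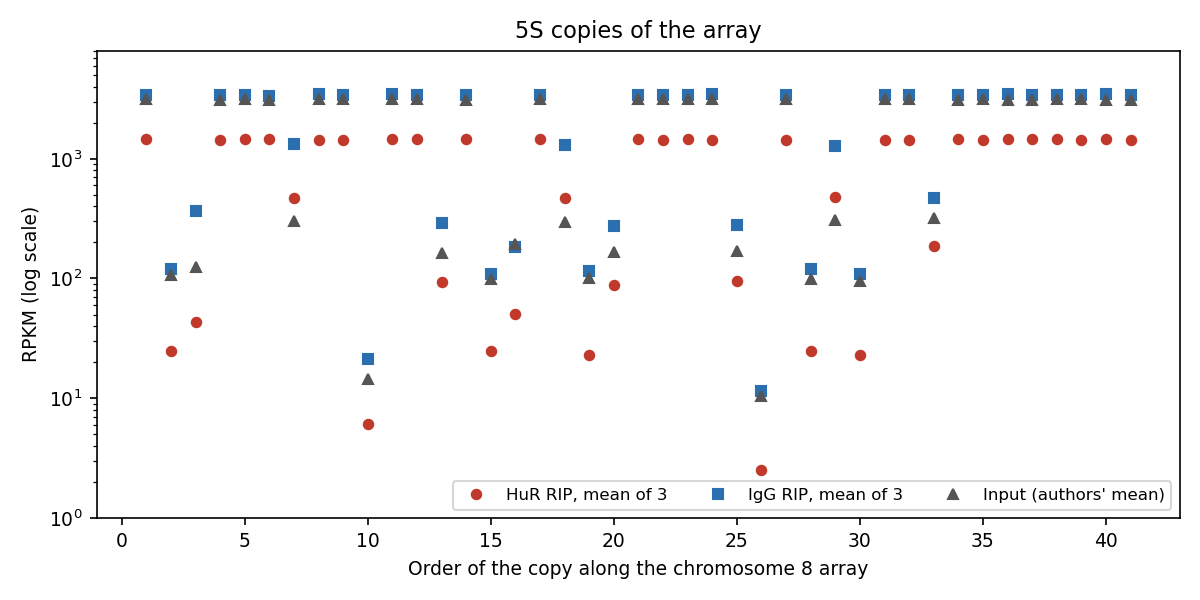
RPKM (log scale) of the 41 copies in their order along the chromosome 8 array, as the mean of 3 libraries for HuR RIP (circles) and IgG RIP (squares) and the authors' mean for Input (triangles). The 25 identical copies form flat lines in each group, and the 16 other copies lie below them in all 3 groups.

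The 16 other array copies, with 1 to 8 differences, reached lower levels. Together they took 5.81%, 4.57% and 4.69% of 5S reads in HuR RIP, 7.02%, 5.83% and 6.35% in IgG RIP and 3.03% in Input. n-R5s106 and its identical partners were the highest of them in both pull-downs. These 3 copies stood per copy at 37.4%, 27.9% and 21.2% of the most frequent sequence in HuR RIP and at 41.8%, 31.4% and 34.3% in IgG RIP, but at 9.61% in Input. All 6 pull-down libraries thus lay above Input in this ratio, and the groups overlapped. n-R5s136 was at 12.1%, 11.3% and 17.2% in HuR RIP, 13.2%, 13.9% and 15.1% in IgG RIP and 10.2% in Input. n-R5s112 and its partners were at 6.15%, 4.58% and 9.20% in HuR RIP, 7.23%, 9.62% and 9.67% in IgG RIP and 5.27% in Input. For these sequences, which differ at 1 base, the HuR and IgG libraries overlapped.

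Copies with the 3 substitutions of n-R5s102 were lower in HuR RIP relative to the most frequent sequence, with no overlap between groups for the 3 sequences that could be compared. n-R5s102 was at 2.59%, 2.69% and 4.88% of the most frequent sequence in HuR RIP, against 12.4%, 7.95% and 8.37% in IgG RIP and 3.98% in Input. n-R5s101 and n-R5s129, which add 1 more, were at 1.65%, 1.66% and 1.94% in HuR RIP, 3.75%, 2.40% and 3.73% in IgG RIP and 3.29% in Input. n-R5s114, n-R5s119 and n-R5s131, with 5 differences in all, were at 1.65%, 1.36% and 1.89% in HuR RIP, 3.50%, 2.32% and 3.37% in IgG RIP and 3.13% in Input. n-R5s127, with 8 differences that include the same 3, stayed under the level used for this ratio, 20 RPKM in a library or in Input: 5.05, 0.319 and 2.19 RPKM in HuR pull-downs, 18.5, 2.52 and 13.4 RPKM in IgG pull-downs and 10.3 RPKM in Input. The other array copies were n-R5s115 (2 differences) and n-R5s109 (3 differences of other kinds). n-R5s115 was at 3.61%, 3.21% and 3.42% of the most frequent sequence in HuR RIP, 5.48%, 4.52% and 5.64% in IgG RIP and 6.18% in Input. It too was lower in HuR RIP without overlap, though it carries none of the 3 substitutions. n-R5s109 was at 0.399%, 0.349% and 0.584% in HuR RIP, 0.548%, 0.441% and 0.967% in IgG RIP and 0.456% in Input, with overlap.

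In all, 20 sequences above 0 in all 6 pull-down libraries and at 20 RPKM per copy or more in a library or in Input were set against the most frequent one in this way, a measure that the total amount of 5S in a library does not touch. Of the 20, 10 had HuR and IgG libraries that did not overlap, 9 of them lower in HuR RIP and 1 higher. Among the 805 tested genes at the same levels, set against the same sequence, 6.46% were lower without overlap and 36.9% higher. For genes other than 5S, however, this ratio does move with the amount of 5S, which is its divisor. The mean level of the divisor was lower with the HuR antibody, which by itself raises the ratios of such genes there. The counts among the 20 therefore cannot be judged against these 2 shares. Without HuR 3 and IgG 1, 15 of the 20 were lower without overlap and 1 higher, and without HuR 2 the counts were 9 and 1. The shares over all genes were not computed for these settings. Smaller groups overlap less easily, so these counts cannot be set against the shares above. Each of the 10 had an exact permutation p of 0.1 (two-sided), the smallest that 3 against 3 libraries allow, and 0.2 after Benjamini-Hochberg adjustment over the 20. The exception in direction was n-R5s64, at 0.452%, 0.558% and 0.438% in HuR RIP against 0.402%, 0.408% and 0.360% in IgG RIP. This permutation test therefore cannot pass a threshold of 0.05 with these libraries.

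**Figure D2:**
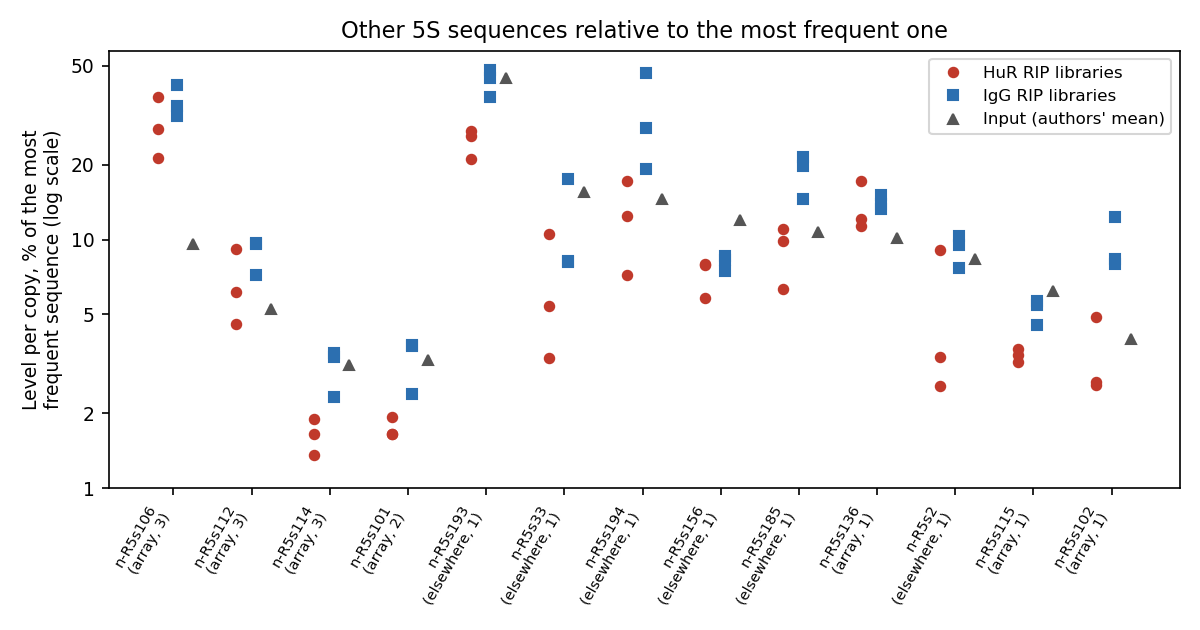
Level per copy of other 5S sequences as a percentage of the most frequent sequence in the same library (log scale), for sequences at 2% or more in Input; labels give the first copy, its place and the number of identical copies. HuR RIP libraries (circles) lie below IgG RIP libraries (squares) without overlap for n-R5s102, n-R5s194, n-R5s185 and n-R5s193, while those of n-R5s106, n-R5s112 and n-R5s136 overlap; triangles are the authors' Input mean.

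Among copies outside the array, the level went with likeness to the array sequence. Copies elsewhere took 2.16%, 2.27% and 3.22% of 5S reads in HuR RIP, 3.89%, 4.11% and 5.55% in IgG RIP and 4.11% in Input. The 5 copies with 1 to 5 differences had a median level of 85.1 RPKM in HuR pull-downs, 352 RPKM in IgG pull-downs and 337 RPKM in Input. The 8 copies with 6 to 10 differences had medians of 1.79 RPKM in HuR pull-downs, 9.48 RPKM in IgG pull-downs and 8.11 RPKM in Input. The 12 copies with 11 to 15 differences had medians of 0.423 RPKM in HuR pull-downs, 1.35 RPKM in IgG pull-downs and 1.14 RPKM in Input, and the 12 with 16 to 20 differences of 0.159 RPKM in HuR pull-downs, 0.777 RPKM in IgG pull-downs and 1.21 RPKM in Input. For the 65 copies with 21 to 53 differences the medians were 0 in HuR RIP, 0.0980 in IgG RIP and 0 in Input, and 39 of them were at 0 in all HuR libraries and 28 in all IgG libraries. These copies share libraries and, for near copies, reads, so the relation is a description.

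**Figure D3:**
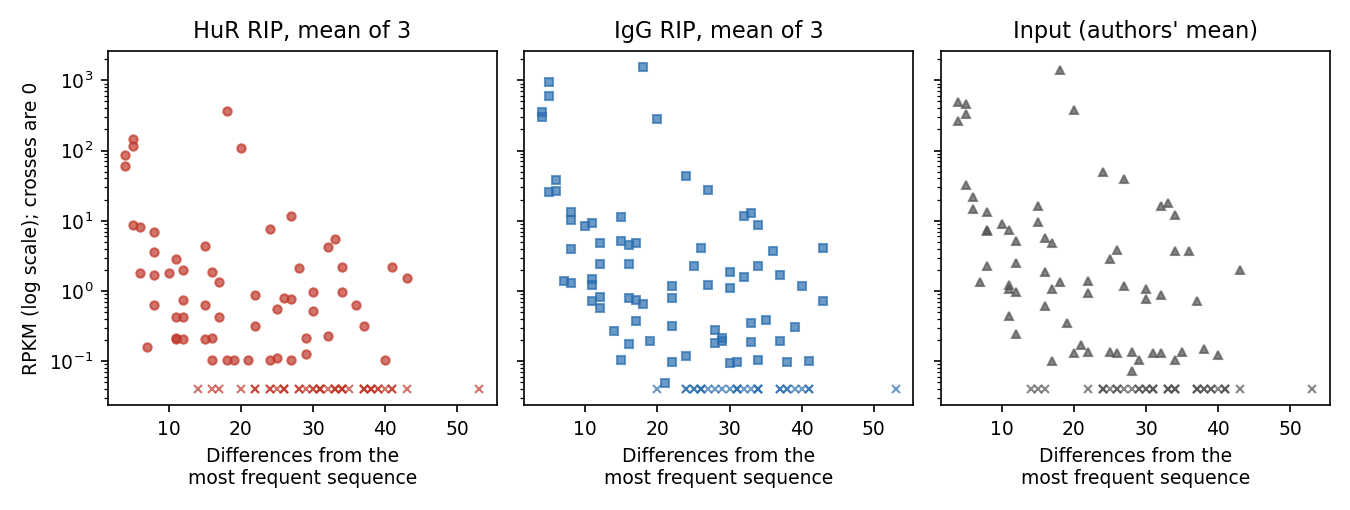
RPKM (log scale, crosses at 0) of the 102 copies outside the array against their number of differences from the most frequent sequence, for the mean of 3 HuR RIP libraries, the mean of 3 IgG RIP libraries and the authors' Input mean. Levels fall off over the first 10 differences in each panel, and the copy near 18 differences that stands above the rest is n-R5s193.

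Of the 143 copies, 119 were above 0 in at least 1 pull-down library and 68 in all 6, while 24 were at 0 in all 6 and 17 of those also in Input. The level is per length and a value of 0 allows up to 3 reads, that is 0.875 to 1.59 RPKM for a copy of 119 bases, depending on the library (counting error only). Of the 119, 111 had a lower mean in HuR RIP than in IgG RIP and 8 a higher one. Over all genes above 0, 28.9% had the lower mean in HuR RIP. Levels were high enough for the test (0.5 RPKM or more in at least 3 of the 6 libraries) in 83 copies, 41 of the array and 42 elsewhere. The other 60 comprised the 24 at 0 and 36 with at most 6.56 RPKM in any pull-down library.

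The comparison of HuR RIP with IgG RIP sets the share of reads with the HuR antibody against that with a control antibody. The amount of RNA bound was not measured by it. All 83 tested copies had a lower mean log2(RPKM + 0.5) in HuR RIP, and a single copy passed the test. Of the 83, n-R5s65 and n-R5s93 reached the level for the test through IgG libraries only, which set their direction beforehand. Others, among them n-R5s58, n-R5s25 and n-R5s50, had a single HuR library at that level and would pass on their IgG libraries alone. The filter thus bears on the direction of low copies, and the counts of copies are given as descriptions. limma on log2(RPKM + 0.5) with Benjamini-Hochberg adjustment over all 5510 tested genes called 1 copy lower, n-R5s71, and 0 higher. The shares called over all tested genes were 0.127% lower and 0.672% higher. At an unadjusted p under 0.05, 20 copies were lower and 0 higher, against 3.19% and 27.9% of all tested genes. Among these 20 was n-R5s65. The count of 20 fell to 5 both without HuR 3 and IgG 1 (1.47% of all genes lower) and without HuR 2 (2.0%). In 19 copies the 3 HuR libraries all lay below the 3 IgG libraries, which was so for 3.48% of all tested genes. Of these 19, 17 were copies other than n-R5s65 and n-R5s93. Such a lack of overlap was found in 21 copies without HuR 3 and IgG 1 and in 22 without HuR 2, against 5.25% and 5.06% of all tested genes. Since 25 of the 83 share 1 sequence and others share reads, these counts are not independent observations.

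The median log2 fold change of the 83 copies was -1.32, in a range of -3.83 to -0.38, whereas the median over all tested genes was 0.92 and 20.9% of them were below 0. Relative to that shift the median of the copies was -2.24, and all 83 lay below it. The outcome of the test hung on the scaling. With a scaling by trimmed means, which sets genes of extreme ratio aside, 68 copies were called lower. Of all 5510 tested genes, 342 were called lower and 50 higher with this scaling. With quantile normalization 0 copies were called lower, where 4 of all tested genes were, and 78 of 83 copies stayed below 0. With libraries centred at their medians 1 copy was called, n-R5s41 and not n-R5s71, where 18 of all tested genes were called lower. Without HuR 3 and IgG 1 the median of the copies was -0.51, with 80 of 83 below 0, 83 of 83 below the median of all genes (1.31), and 0 called lower.

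**Figure D4:**
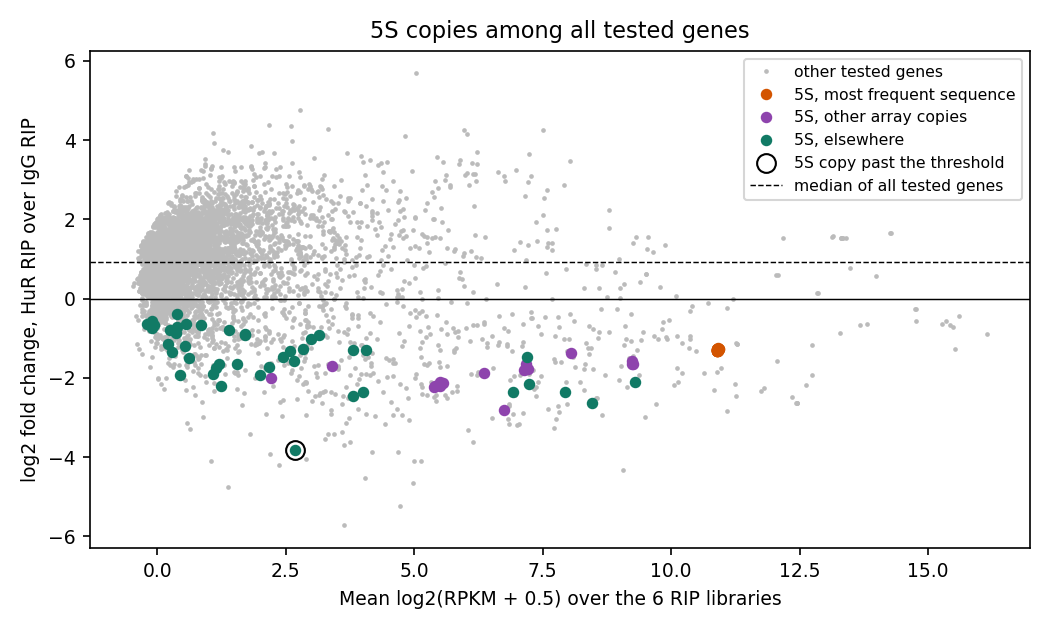
Log2 fold change of HuR RIP over IgG RIP against the mean log2(RPKM + 0.5) of the 6 pull-down libraries, for 5S copies (coloured) and the other tested genes (grey). The dashed line is the median of all tested genes at 0.92; all 83 tested copies lie below 0, and the ringed one, n-R5s71, is the copy past the threshold.

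By sequence, the 25 identical copies had a median log2 fold change of -1.30 (-1.32 to -1.25), with limma adjusted p between 0.384 and 0.403. For n-R5s100, 1 of the 25, leaving out 1 library gave -1.85 (without HuR 1) to -0.80 (without IgG 1). Summed into 1 gene they gave -1.29 (SE 1.12, limma adjusted p = 0.409). The 16 other array copies had a median of -1.85 (-2.81 to -1.37), the lowest being n-R5s102 (SE 1.09, limma adjusted p = 0.102). The 7 array copies with the 3 substitutions of n-R5s102 lay between -2.81 and -2.01. Elsewhere, the 12 tested copies with 10 differences or fewer had a median of -2.05, and the 30 with 11 or more of -1.28. None of these groups was tested against another.

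n-R5s71, the copy past the threshold, was low in both pull-downs and lower in HuR RIP. It was at 3.16, 0 and 2.19 RPKM in HuR 1, HuR 2 and HuR 3, against 39.7, 11.03 and 30.02 RPKM in IgG 1, IgG 2 and IgG 3, and 14.6 RPKM in Input. All 3 HuR libraries lay below all IgG libraries and below Input. These values are 10, 0 and 7 reads in HuR RIP and 75, 35 and 103 reads in IgG RIP, and the 0 of HuR 2 allows up to 0.957 RPKM. The means were 1.78 ± 1.62 RPKM in HuR pull-downs and 26.9 ± 14.6 RPKM in IgG pull-downs (SD, n = 3 per group). The log2 fold change was -3.83 on the log2(RPKM + 0.5) scale (SE 0.91, limma adjusted p = 0.0464). The adjusted p lay between 0.0088 and 0.540 over the 20 alternatives and passed 0.05 in 8 of them. It did not pass without HuR 2 (0.115) or without IgG 2 (0.173), and the log2 fold change without 1 library lay between -4.38 and -2.95.

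**Figure D5:**
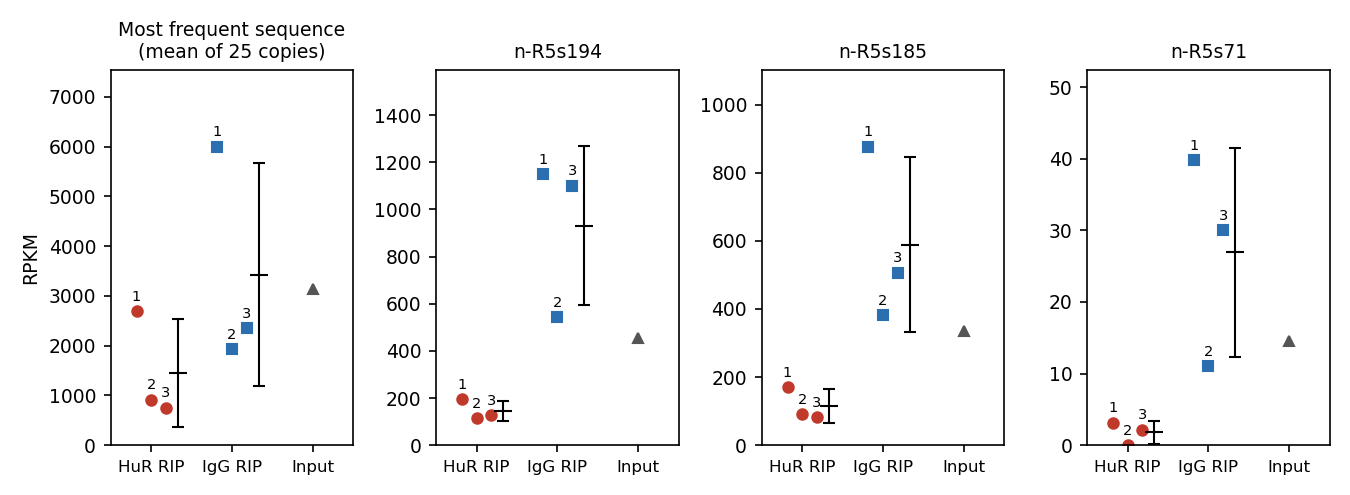
RPKM per library (linear axes) of the most frequent 5S sequence, n-R5s194, n-R5s185 and n-R5s71, with HuR RIP (circles), IgG RIP (squares) and the authors' Input mean (triangle); small digits are library numbers, and bars are the mean ± SD over 3 libraries. Groups overlap for the most frequent sequence, where HuR 1 at 2692 RPKM exceeds IgG 2 at 1931 RPKM, and do not overlap for the other 3 copies.

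Among the other near copies of the array sequence, the HuR libraries again lay at the low end. n-R5s194 was at 194, 113 and 128 RPKM in HuR pull-downs, against 1149, 543 and 1100 RPKM in IgG pull-downs and 456 RPKM in Input. Its groups did not overlap, and the log2 fold change was -2.64 (SE 1.0594, limma adjusted p = 0.109). n-R5s185, in the Tmem38b exon, was at 171, 90.3 and 82.3 RPKM in HuR pull-downs, against 877, 382 and 506 RPKM in IgG pull-downs and 337 RPKM in Input, again without overlap (log2 fold change -2.35, SE 1.0585, limma adjusted p = 0.138). Its reads were split with that exon in the authors' counting, and the strand setting of the counting is not given in the sources used here. n-R5s2, on chromosome X outside annotated genes (4 differences), was at 90.6, 23.6 and 68.1 RPKM in HuR pull-downs, 461, 183 and 243 RPKM in IgG pull-downs and 263 RPKM in Input. n-R5s33, within Lrch3 on chromosome 16 (4 differences), was at 146, 30.6 and 79.0 RPKM in HuR pull-downs, 490, 157 and 410 RPKM in IgG pull-downs and 487 RPKM in Input. Neither overlapped, and their log2 fold changes were -2.37 and -2.15 (limma adjusted p = 0.140 and 0.176).

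Copies at low level with 5 to 10 differences showed more overlap. n-R5s151, within Npas1 on the opposite strand, was at 11.7, 5.75 and 8.74 RPKM in HuR pull-downs, 40.3, 8.83 and 26.8 RPKM in IgG pull-downs and 32.2 RPKM in Input. n-R5s28 was at 18, 1.60 and 4.996 RPKM in HuR pull-downs, 46.6, 13.6 and 52.2 RPKM in IgG pull-downs and 21.7 RPKM in Input (log2 fold change -2.45, SE 0.996, limma adjusted p = 0.112), and leaving out 1 library gave -3.27 (without HuR 1) to -1.70 (without HuR 2). In both copies HuR 1 lay above IgG 2. n-R5s210 was at 3.47, 0.958 and 0.937 RPKM in HuR pull-downs, 14.3, 3.15 and 8.16 RPKM in IgG pull-downs and 8.95 RPKM in Input. n-R5s64 was at 12.2, 5.11 and 3.28 RPKM in HuR pull-downs, 24.1, 7.88 and 8.45 RPKM in IgG pull-downs and 13.4 RPKM in Input, and n-R5s195 at 1.89, 6.06 and 2.97 RPKM in HuR pull-downs, 12.2, 3.78 and 15.3 RPKM in IgG pull-downs and 7.28 RPKM in Input. n-R5s64 overlaps the predicted miRNA gene Gm47285 and n-R5s195 the unclassified Gm42781, and the counts of both were split with them. n-R5s211 was at 1.58, 0.638 and 2.81 RPKM in HuR pull-downs, 8.48, 0.946 and 2.62 RPKM in IgG pull-downs and 7.27 RPKM in Input. The groups overlapped in these last 4 copies.

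3 copies far from the array sequence and shorter than it were at a level like that of near copies. Short length was not common to all such copies: n-R5s96, with 27 differences, is 124 bases long. Its means were 11.7 RPKM in HuR pull-downs and 27.6 RPKM in IgG pull-downs. Those of n-R5s151, with 5 differences, were 8.72 and 25.3 RPKM. n-R5s193 on chromosome 4 is 109 bases long, with 10 differences over its own length and 18 over the whole 5S sequence. It was at 702, 192 and 204 RPKM in HuR pull-downs, 2884, 723 and 1053 RPKM in IgG pull-downs and 1401 RPKM in Input, without overlap (log2 fold change -2.10, SE 1.10, limma adjusted p = 0.187). It coincides with the predicted miRNA gene Gm47301 on the same strand, with which its reads were split. n-R5s156 on chromosome 7 is 105 bases long, with 13 differences over its own length and 20 over the whole 5S sequence. It was at 215, 72.0 and 43.5 RPKM in HuR pull-downs, 514, 144 and 195 RPKM in IgG pull-downs and 378 RPKM in Input. n-R5s56 on chromosome 13 is also 105 bases long, with 13 differences over its own length and 24 over the whole 5S sequence. It was at 14.0, 3.98 and 4.95 RPKM in HuR pull-downs, 64.9, 13.9 and 49.6 RPKM in IgG pull-downs and 49.9 RPKM in Input (log2 fold change -2.35, SE 0.98, limma adjusted p = 0.115). HuR 1 lay above IgG 2 for both.

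The more diverged copies that reached 5 RPKM in a library were made of few reads. n-R5s41, in the genes Smdt1 and Pheta2 on chromosome 15 but in no exon of theirs, was at 0.316, 0.638 and 0.937 RPKM in HuR pull-downs, 9.01, 3.15 and 3.21 RPKM in IgG pull-downs and 9.52 RPKM in Input (log2 fold change -2.20, SE 0.76, limma adjusted p = 0.0844). n-R5s204, within Nusap1, was at 3.79, 2.55 and 2.19 RPKM in HuR pull-downs, 12.7, 4.73 and 10.2 RPKM in IgG pull-downs and 7.44 RPKM in Input. n-R5s167 was at 3.42, 2.20 and 0.921 RPKM in HuR pull-downs, 14.1, 7.75 and 4.01 RPKM in IgG pull-downs and 12.03 RPKM in Input, and n-R5s161 at 1.98, 1.67 and 0.326 RPKM in HuR pull-downs, 3.87, 3.95 and 6.69 RPKM in IgG pull-downs and 4.76 RPKM in Input. In these 4 copies the groups did not overlap.

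The groups overlapped in the next 9 copies. n-R5s96 was at 21.2, 7.05 and 6.89 RPKM in HuR pull-downs, 43.7, 17.9 and 21.3 RPKM in IgG pull-downs and 39.1 RPKM in Input. n-R5s40, within Gtpbp1, was at 8.79, 4.90 and 2.997 RPKM in HuR pull-downs, 24.4, 6.35 and 8.11 RPKM in IgG pull-downs and 17.9 RPKM in Input. n-R5s155 was at 5.99, 3.36 and 3.29 RPKM in HuR pull-downs, 17.3, 5.64 and 11.7 RPKM in IgG pull-downs and 16.3 RPKM in Input. In each of these 3 copies HuR 1 lay above at least 1 IgG library. n-R5s60 was at 9.47, 1.60 and 1.87 RPKM in HuR pull-downs, against 18.02, 9.14 and 6.70 RPKM in IgG pull-downs and 16.2 RPKM in Input. n-R5s77, n-R5s88, n-R5s205, n-R5s68 and n-R5s162 had means between 0.736 and 2.02 RPKM in HuR pull-downs and between 2.42 and 4.75 RPKM in IgG pull-downs, with log2 fold changes of -1.74 to -0.63. The 15 tested copies below 5 RPKM in every library and in Input had means of 0.209 to 0.974 RPKM in HuR pull-downs and 0.581 to 3.73 RPKM in IgG pull-downs, with log2 fold changes between -1.94 (n-R5s65, limma adjusted p = 0.0835) and -0.38 (n-R5s170). Of these 15, n-R5s166, n-R5s65 and n-R5s93 had groups that did not overlap. For n-R5s65 and n-R5s93 the filter set this beforehand, since none of their HuR libraries reached 0.5 RPKM.

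2 untested copies were among the 8 with a higher mean in HuR RIP and stood out by reads in 1 library. n-R5s192, in an intron of Mtf1 on the same strand and with 41 differences, was at 6.56 RPKM in HuR 3, which is 21 reads, and at 0 in every other library and in Input. n-R5s89, over an exon of Slco2a1 on the opposite strand, was at 6.43 RPKM in HuR 3 and 0.541 RPKM in IgG 2, and at 0 in the other 4 pull-down libraries. The other 6 were at most 0.333 RPKM in any HuR library.

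Set against Input, most copies were lower in HuR RIP, while in IgG RIP the libraries lay on both sides. Over the 83 tested copies, the median log2 ratio of RPKM + 0.5 over Input + 0.5 was -0.26, -1.80 and -2.05 in HuR 1, HuR 2 and HuR 3, against 0.92, -0.71 and -0.39 in IgG 1, IgG 2 and IgG 3. In HuR RIP, 69 of the 83 copies lay below Input in all 3 libraries and 0 above it in all 3. Of all tested genes, 3.90% lay below Input in all 3 HuR libraries. The count of copies was 69 without HuR 3 and 71 without HuR 2, against 6.01% and 6.57% of all tested genes. In IgG RIP, 3 copies lay below Input in all 3 libraries and 11 above it, with 6.88% of all tested genes below. The share of all tested genes above Input was not computed for either pull-down. The 25 identical copies lay below Input in HuR RIP at 749 to 2692 RPKM, against 1931 to 6000 RPKM in IgG pull-downs on both sides of the Input level of 3144 RPKM.

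The authors' deposited table gives a p-value for HuR against IgG for 119 of the 143 copies. A p-value under 0.05 stands beside 9 copies in the authors' deposited table, all lower in HuR RIP, and 0.261% of its exons are of that kind. The lowest p-value in the authors' deposited table was 0.0052 (n-R5s194) and the lowest q-value over the copies 0.541. The copy past the threshold above, n-R5s71, has a p-value of 0.0157 in the authors' deposited table.

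The genes of proteins that make, hold or carry 5S RNA were at low levels in these total RNA libraries and 0 of them passed the test. Of 39 names listed, 36 were in the table and 9 reached the level for the test. Their median log2 fold change was 0.38 (-1.51 to 1.78) and 7 of 9 were above 0, as were 79.1% of all tested genes, whose median was 0.92. Rpl5, whose annotated exons overlap the small nucleolar RNA gene Snord21, was at 0.849, 0.697 and 1.64 RPKM in HuR pull-downs, 20.9, 1.44 and 1.42 RPKM in IgG pull-downs and 0.235 RPKM in Input. IgG 1 alone stood high in this gene (log2 fold change -1.51, limma adjusted p = 0.235, and -0.35 without IgG 1). Rpl11 was at 0.0971, 0.198 and 0.451 RPKM in HuR pull-downs and 0.164, 0.195 and 1.29 RPKM in IgG pull-downs, and Gtf3a at 1.63, 0 and 0.118 RPKM in HuR pull-downs and 0.323, 0.402 and 0 RPKM in IgG pull-downs, both too low for the test. Ssb had a log2 fold change of 0.38 (limma adjusted p = 0.661), which fell below 0 with each other scaling tried. Polr3k, which encodes a small subunit of RNA polymerase III, had the largest value, 1.78 (limma adjusted p = 0.0707), at 1.37, 0.863 and 2.26 RPKM in HuR pull-downs and 0.202, 0 and 0 RPKM in IgG pull-downs. Ipo7, an importin, was at 1.16 (limma adjusted p = 0.119) and Rrs1, a ribosome assembly factor that receives the 5S particle, at 1.01 (limma adjusted p = 0.270), or -0.0933 with libraries centred at their medians.

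Of 15 tested genes on a list of other structural RNAs, 0 passed. The list also held Lars2, a protein-coding gene, and Gm26917, Gm42418, CT010467.1 and AY036118, listed for the ribosomal repeat. Over the list, log2 fold changes ran between -4.33 (Gm26917) and 1.39 (Rpph1), with a median of -0.57 (Gm42418) and 5 above 0. The low end and the median are thus not those of small structural RNAs. The gene of 5.8S RNA in the table, n-R5-8s1, had a log2 fold change of -1.32 (limma adjusted p = 0.398), close to the median of the 5S copies. It was at 412, 461 and 3854 RPKM in HuR pull-downs, against 2325, 1655 and 2969 RPKM in IgG pull-downs and 2124 RPKM in Input, so that HuR 3 was the highest of the 6, where for 5S it was the lowest.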

How the data were processed

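RNA immunoprecipitation and sequencing was done on HuR RIP, IgG RIP and Input, 3 libraries each, of which the Input column is a mean by the authors. Bowtie2, featureCounts and mm10 are named in the submitters' processing notes, without versions. The deposited values are RPKM per exon, log2 ratios over Input and a p-value and q-value per exon, computed by the authors. Which test they used is not given in the sources used here. Values from 1 upwards lacked their decimal mark in the deposited table, and each was restored from its digits so that the RPKM gave the authors' log2 fold columns. Of 138826 distinct value lines, 138826 then agreed in 6 of 6 folds, and 1 line (of Ngly1) had more than 1 reading.

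Exon RPKM times exon length was summed per gene and divided by the merged exon length. The value of 1 read gave the library sizes. Whole reads, to a tolerance of 0.05, came out for 85.8% to 90.8% of genes per library and for 135 of 143 5S copies, and the 8 others overlap an exon of another gene. Because of such splits the count model foreseen for whole counts was not run. For HuR RIP against IgG RIP, limma 3.58.1 was run (R 4.3.3, trend and robust moderation, two-sided, threshold 0.05) on log2(RPKM + 0.5), for genes at 0.5 RPKM or more in at least 3 of 6 libraries. The fit was tested on simulated data, in which 200 genes were changed and every gene had the same set spread. This checks the code and does not show how the fit behaves at the spread of these libraries. Fold changes on this scale understate low genes, RPKM are relative to each library's total, and counting error takes reads as independent molecules, which they are not.

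All 143 copies have the same coordinates in GENCODE M21, which lists 180 such names; 37 are not analysed here. Differences are edit distances (edlib 1.3.9.post1, Python 3.11.15) to the most frequent sequence. They are taken over its whole length, so bases missing from a shorter copy count as differences. The sequences themselves are not reported here. Members, gene lists, rules and tests were chosen with earlier results of these data known. By the naming rule, every copy past the filter or at 5 RPKM or more in any column was to be given per library; the lowest of these are given by range. Of the pathway list, up to 6 genes by smallest p and Rpl5, Rpl11, Gtf3a and Ssb were to be named. Alternatives were other scalings, filters, pseudocounts, moderation, weights, a replicate block, summed identical copies, the largest exon line per gene and leaving out libraries.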

Additional observations from a re-analysis of the deposited data

How the results depend on the processing

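Over the 20 alternatives, 353 of 358 values of the 18 named 5S copies stayed below 0, and 0 copies were called higher in any. The count of copies called lower by limma, 1 in the reported fit, was 68 with scaling by trimmed means and 10 with sample quality weights. It was 0 with quantile normalization, no filter, a pseudocount of 0.1 or 1, no trend or robust moderation, the largest exon line, and without HuR 3 and IgG 1. Leaving out 1 library gave 0 to 1, with 0 without HuR 2 or without IgG 2. The median log2 fold change of the copies was -2.42 with centred libraries and -2.93 with trimmed means.

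Of all genes, 37 were higher and 7 lower; the counts were 1 and 18 with centred libraries, 50 and 342 with trimmed means, 5 and 4 with quantile normalization, 0 and 0 with no filter, 145 and 21 with a filter at 1 RPKM, 3 and 1 with a pseudocount of 1, 0 and 0 without trend, 2296 and 84 with weights, 0 and 0 without HuR 3 and IgG 1, and 1 and 0 with the largest exon line. Leaving out 1 library gave 0 to 724 higher and 0 to 35 lower. The cause of these changes was not tested.

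The sign changed for n-R5s100 with quantile normalization (0.0066), and for n-R5s170 with weights (0.0406), without HuR 3 and IgG 1 (0.65), without HuR 3 (0.21) and without IgG 1 (0.0621). It changed for Ssb with centred libraries (-0.72), trimmed means (-0.0498), quantile normalization (-0.31), without HuR 1 (-0.0623) and without IgG 3 (-0.0127), and for Rrs1 with centred libraries (-0.0933). Leaving out 1 library gave a range of -0.95 to 0.21 for n-R5s170 and -0.06 to 0.96 for Ssb.

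With the replicate number as a block, limma called 0 genes higher, 0 lower and 0 copies, and n-R5s71 had an adjusted p of 0.0644. Same-numbered libraries deviated together with correlations of 0.138, 0.117 and 0.0860, each library correlating best with its own number, a hint from the data and not the design. The authors' fold columns exchange HuR 2 and HuR 3; a block with them exchanged, chosen after seeing the data, also gave 0 calls. Depth limits the copies at a few reads, for which a value of 0 allows up to 3 reads.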
